A study of Sus scrofa with 5 samples.

Results

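The genes described here encode the machinery of oxidative phosphorylation (OXPHOS) and were read out in single nuclei of pig dorsal root ganglia. Members were the rows whose symbol begins with NDUF, UQCR, ATP5, SDH (A to D), COX4, COX5, COX6, COX7 or COX8, together with the 13 protein-coding rows of the mitochondrial genome. The rule found 91 of the 30477 rows of the count table. Of these, 78 were nuclear genes and 13 were mitochondrial, and 6 of the nuclear rows (NDUFA4, NDUFA7, NDUFB1, UQCR11, COX7B and SDHA) carried an Ensembl identifier and were matched through a table of gene names.

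Oxidative phosphorylation passes electrons from NADH and succinate along complexes I to IV of the inner mitochondrial membrane to oxygen, and complex V (ATP synthase) uses the proton gradient that results to make ATP. Complex II is built from nuclear genes alone, whereas the other complexes combine subunits of both genomes: nuclear messages leave the nucleus for the cytosol, and the mitochondrial messages are made and stay inside the organelle. Sensory neurons have long axons and depend on this pathway for impulse conduction and transport. A mitochondrial message therefore has no place in a clean nucleus, and its share of the counts is widely used as a measure of the cytoplasm that travels with nuclei.

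Nuclei came from 80 mg of thoracic and lumbar ganglion tissue per sample from 5 male Landrace pigs, a single group for which the labels give no treatment and no age. In these ganglia sit the somata of neurons for touch, position, temperature, itch and pain. Tissue was lysed with Triton X-100 or with IGEPAL CA-630, and nuclei were cleaned by density gradient, or those bearing the neuronal protein NeuN were enriched with magnetic beads or by fluorescence sorting. The labels do not say which sample went through which procedure.

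In all there were 2189 nuclei with 17277376 UMIs (unique molecular identifiers, each marking a captured RNA molecule), and up to 338372 UMIs in a nucleus. Barcodes ended in 6 numbers, treated as 6 libraries of 682, 13, 805, 75, 331 and 283 nuclei, from library 1 to library 6. No barcode sequence occurred in more than 1 library. The labels do not tie the libraries to pigs, so the table was a single pooled sample: no test between groups was possible, no p-value is given, and each 95% interval covers counting error only. Of 10 neuronal markers, 9 had a row and all 9 had UMIs, and their summed level, 5937 to 25538 UMIs per 1000000 across libraries, exceeded that of the satellite glia and Schwann cell markers (11 of 12 with UMIs) in each library, which ranged from 422 to 3282. Library 2 had 3 nuclei above 50000 UMIs, and the deepest of them supplied 46.0% of its nuclear OXPHOS UMIs.

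Library 3 also stood apart in which rows it filled. Of the 13304 rows with at least 50 UMIs, 1136 were at 0 in library 3, against 39 to 89 in the libraries 1, 4, 5 and 6 and 868 in the small library 2. Of those 1136 rows, 1118 were rows without a symbol in the table. A further 58 rows had 20 or more UMIs in library 3 and none in any other library, and no other library had such a row. Among the OXPHOS genes above this minimum NDUFA7, a complex I subunit, was at 0, with no UMI in library 3, where the level of the other libraries would give 176. A level of 0 for such a row in library 3 is therefore not read as low expression, and the cause was not tested.

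The nuclear OXPHOS genes and the mitochondrial genes both differed strongly between libraries, in different orders. Summed over all UMIs, the 78 nuclear genes were highest in library 1 and the 13 mitochondrial genes in library 3. Of the 73 nuclear genes with at least 50 UMIs, 65 had their highest level in library 1, and ND3 was the 1 mitochondrial gene that was higher in another library, at 2207 UMIs per 1000000 non-mitochondrial UMIs in library 3 and 5790 in library 2. Levels of nuclear genes are given as UMIs per 1000000 non-mitochondrial UMIs (CPM), so that the mitochondrial share cannot shift them. The summed nuclear level was 15498 CPM in library 1, 8300 CPM in library 2, 5405 CPM in library 3, 3104 CPM in library 4, 1700 CPM in library 5 and 1611 CPM in library 6, with counting intervals of 1649 to 1753 CPM and 1575 to 1646 CPM for libraries 5 and 6. The highest and the lowest library were 9.62-fold apart.

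Mitochondrial messages made up 4.76%, 16.2%, 24.3%, 1.79%, 0.140% and 0.0709% of all UMIs, from library 1 to library 6, a range of 343-fold. Library 3 was thus 5.10-fold above library 1 in mitochondrial share, while library 1 was 2.87-fold above library 3 in nuclear OXPHOS level. For each nuclear OXPHOS UMI there were, from library 1 to library 6, 3.23, 23.2, 59.4, 5.86, 0.825 and 0.441 mitochondrial UMIs. This ratio was highest in library 3 and lowest in library 6. The libraries 5 and 6 were the pair with the lowest level of both.

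**Figure D1:**
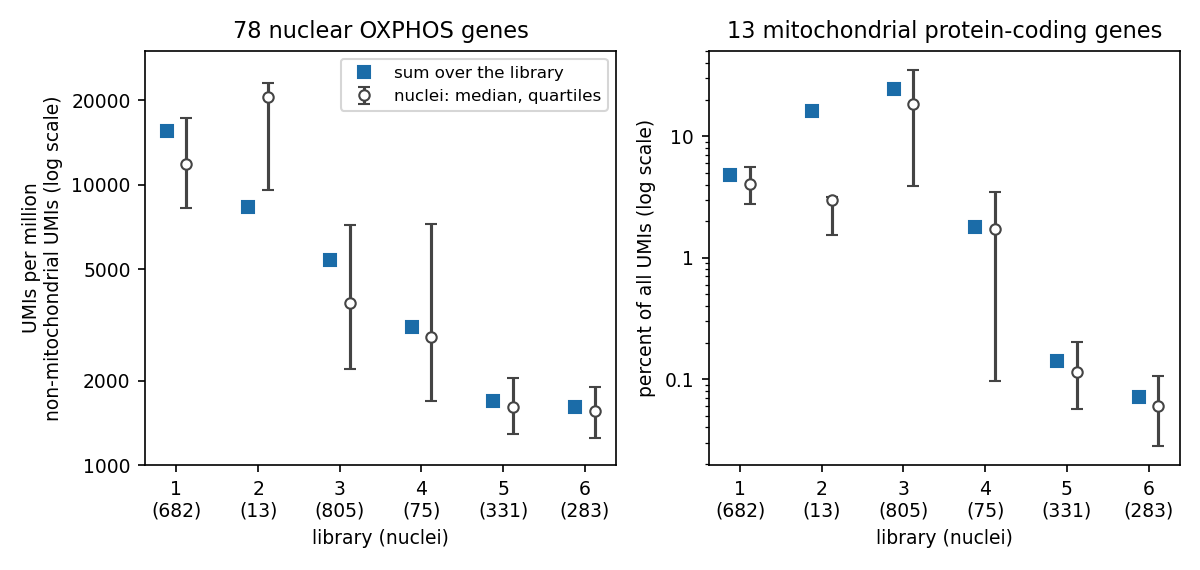
Summed level of the 78 nuclear OXPHOS genes (left, UMIs per 1000000 non-mitochondrial UMIs, log scale) and of the 13 mitochondrial genes (right, percent of all UMIs, log scale) in each library, with squares for the sum and open circles with bars for the median and quartiles of single nuclei. Library 1 has the highest sum on the left, at 15498, and library 3 the highest on the right, at 24.3%.

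Single nuclei showed the same order in libraries 1, 3 and 6. The median nucleus had 11885 CPM of nuclear OXPHOS message in library 1 (quartiles 8262 and 17306), 3799 CPM in library 3 (2204 and 7194) and 1557 CPM in library 6 (1250 and 1897). Within library 3 the mitochondrial share itself was wide, with quartiles of 3.93% and 35.4% around a median of 18.5%. In library 6 its quartiles were 0.0279% and 0.107%. Of the 13 nuclei in library 2 the median had 20576 CPM and 2.99% mitochondrial UMIs, against sums of 8300 CPM and 16.2% that its few deep nuclei set. Library 2, not library 1, was thus highest in the median and mean CPM of single nuclei. The means were 19768 CPM in library 2 and 13700 CPM in library 1. Without nuclei above 50000 UMIs the sum was also highest in library 2, at 22538 CPM against 15498 CPM in library 1.

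Depth differed between libraries, so each nucleus was also thinned to 1000 non-mitochondrial UMIs, with 57, 8, 61, 7, 8 and 8 nuclei below that number left out of libraries 1 to 6. At equal depth the median nucleus held 12, 9, 4, 4, 2 and 1 nuclear OXPHOS UMIs from library 1 to library 6. Its mitochondrial UMIs numbered 43, 102, 241.5, 16, 1 and 0 from library 1 to library 6. For the nuclear OXPHOS UMIs library 1 was thus above library 2 in the median, with 5 nuclei kept in library 2. In the mean library 2 was higher, at 15.4 UMIs against 13.9 in library 1. The share of nuclei with an NDUFA4 UMI, unthinned, was 71.6% in library 1, 37.4% in library 3 and 26.9% in library 6, and after thinning it was 45.6%, 15.6% and 0.727%. Every cell type uses these genes, so no type in the table could serve as a background for such a share.

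Ribosomal protein messages were ordered much like the nuclear OXPHOS genes, and messages of mitochondrial biogenesis were not. The 71 cytosolic ribosomal protein genes, which share no member with the list, summed to 14197, 8820, 5623, 4122, 2811 and 2874 CPM from library 1 to library 6, a range of 5.05-fold. The 16 genes of mitochondrial biogenesis summed to 475, 499, 685, 657, 460 and 545 CPM in the same order, so that library 1 was among the lowest. Glial markers were also highest in library 1, at 3282 CPM, against 855 CPM in library 3 and 437 CPM in library 6. Neuronal markers were highest there too, with 25538, 11211 and 5937 CPM in libraries 1, 3 and 6. So were genes of other assembly factors and carriers (3338, 1340 and 614 CPM) and of the citrate cycle (1232.5, 743 and 565 CPM). Glycolysis genes had 6354, 2468 and 2371 CPM in these libraries and were highest in library 2, at 6851 CPM. The parts of cytoplasm, glial RNA, animal and protocol in these differences were not tested, and they cannot be told apart from the libraries themselves.

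Nearly all nuclear members took part. Above the minimum of 50 UMIs were 73 of the 78, and the members below it were COX6B2, which was listed at 0, NDUFS8 (4 UMIs), COX4I2 (27), NDUFA4L2 (34) and COX7A1 (47). Library 1 exceeded the other libraries pooled by at least 2-fold for 62 of the 73 genes and fell below them by that much for none, where 16.6% of all 13304 genes tested were at least 2-fold higher and 20.4% at least 2-fold lower. In library 6, 61 of 73 were at least 2-fold lower than in the others (17.1% of all genes), in library 5, 58 (16.1%), and in library 4, 33 (9.39%). No member was 2-fold higher in libraries 4, 5 or 6, where 8.89%, 5.71% and 5.82% of all genes were.

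In library 3 the nuclear members followed no common direction against the other libraries. COX4I1, a regulatory subunit of complex IV, and NDUFB1 were at least 2-fold higher (3.77% of all genes). ATP5MC3 and NDUFB10 were at least 2-fold lower, leaving aside the 0 of NDUFA7, beside 17.3% of all genes, in which rows at 0 in library 3 are counted. COX4I1 had 344 CPM in library 3 and 154 CPM in the other libraries pooled. NDUFB10, like UQCR10, NDUFB2, UQCRC1 and NDUFAB1 below, is named because few members passed the limit, after its value was seen. All 13 mitochondrial genes were at least 2-fold higher in library 3 than in the others. In library 2, 12 nuclear members were at least 2-fold higher, a share not far above the 13.9% of all genes. None was at least 2-fold lower (30.0% of all genes), and NDUFA7 had the highest ratio. That ratio rests in part on its 0 in library 3: NDUFA7 had 141 CPM in library 2, below the 164 CPM of library 1.

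The complexes did not scale together. Between libraries 1 and 6 the 5 complexes differed most for complex IV and least for complex II, and the assembly factors differed less than any of them. Complex IV, cytochrome c oxidase, which reduces oxygen, summed to 4828 CPM in library 1, 1694 CPM in library 3 and 267 CPM in library 6 over its 15 nuclear rows. Library 1 was 18.1-fold above library 6 for complex IV, 14.8-fold for complex V, 7.38-fold for complex I, 7.0-fold for complex III and 2.75-fold for complex II. The 8 NDUFAF assembly factors, which help to build complex I and are not part of it, were 1.72-fold apart, with 205 CPM in library 1 and 119 CPM in library 6.

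Shares within the list shifted accordingly. Complex IV made up 31.2%, 31.4%, 16.4% and 16.6% of the nuclear OXPHOS UMIs of libraries 1, 3, 5 and 6. Complex II, succinate dehydrogenase, made up 3.02%, 4.97%, 10.5% and 10.6% of those of the same libraries. Assembly factors held 1.32% in library 1 and 7.37% in library 6. The libraries 5 and 6, with few mitochondrial UMIs, thus resembled each other in both shares.

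**Figure D2:**
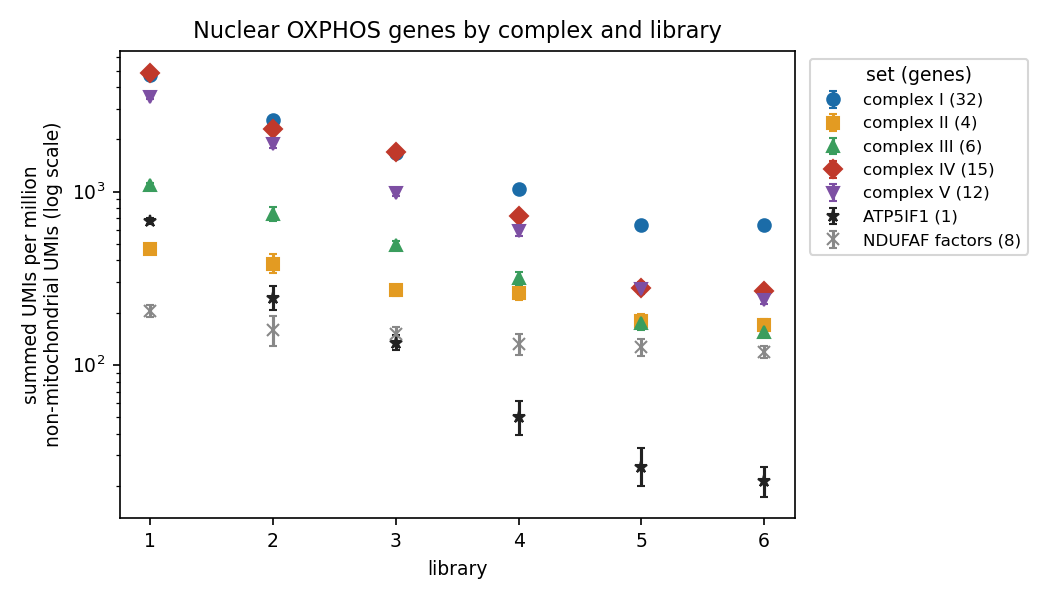
Summed level of the nuclear OXPHOS genes of each complex, of the inhibitor ATP5IF1 and of the NDUFAF assembly factors (UMIs per 1000000 non-mitochondrial UMIs, log scale) in the 6 libraries, with 95% counting intervals. Complex IV spans 4828 to 267 between libraries 1 and 6, and the assembly factors 205 to 119.

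Single members ranged widely around these sums. The fold of library 1 over library 6 had a median of 12.01 over the 73 genes, was at least 10 for 41 of them and was below 2 for 8. Those 8, of which NDUFS1 is named after its value was seen, were NDUFAF2, NDUFAF7, NDUFAF6, NDUFAF5, NDUFAF1, NDUFA10, COX6A2 and NDUFS1. The share of all genes past these limits is not given, so the counts compare members only with each other. NDUFAF2, an assembly factor for complex I whose RefSeq span is 180389 bases on chromosome 16 (Sscrofa11.1), ran the other way, with 28.8, 25.1, 50.2, 39.4, 40.5 and 39.7 CPM from library 1 to library 6. NDUFA10, an accessory subunit of complex I with a span of 32719 bases on chromosome 15, had 147, 78.4, 74.1, 61.2, 111 and 96.6 CPM in the same order. NDUFAF2 was thus lower in library 1 than in library 6, and NDUFA10 was 1.52-fold higher in library 1, where 41 of 73 members were 10-fold or more higher.

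At the other end, NDUFA11, ATP5MC3 and COX8A had the highest folds of library 1 over library 6, 134 for NDUFA11 and 67.0 for COX8A. ATP5MC3, which encodes a copy of the c subunit of the rotor of ATP synthase, had 334, 226, 49.2, 27.9, 4.09 and 4.28 CPM from library 1 to library 6. COX8A, a small subunit of complex IV, had 710, 425, 173, 97.0, 11.9 and 10.6 CPM in the same order of libraries. NDUFA11, an accessory subunit of complex I with a span of 6893 bases, was the lowest against the other libraries in library 6, with 0.408 CPM there from 2 UMIs and 54.5 CPM in library 1. ATP5IF1, the inhibitor that keeps ATP synthase from running backwards, had 674, 243, 134, 49.7, 25.8 and 21.2 CPM from library 1 to library 6. RefSeq spans could be matched for 52 of the 78 nuclear members (66.7%), so a check of level against gene length over the list would be void.

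Complex I holds the largest number of members, 32 rows. Its members with the most UMIs were NDUFA10, NDUFC2 and NDUFS4. NDUFC2 had 298 CPM in library 1, 95.4 CPM in library 3 and 7.13 CPM in library 6, whereas NDUFS4, a subunit with a span of 111221 bases on chromosome 16, had 182, 85.1 and 57.3 CPM in those libraries. Of the assembly factors, NDUFAF6 was the highest member against the other libraries in library 5 (19.6 CPM), NDUFAF7 in library 6 (24.5 CPM) and NDUFAF5 in library 4 (20.01 CPM).

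In complex II, SDHA, the flavoprotein that oxidises succinate, had 161 CPM in library 1, 108 in library 3 and 58.1 in library 6. SDHB, the iron-sulphur subunit, had 161, 72.8 and 79.9 CPM, and SDHC, a membrane anchor, had 71.0, 47.9 and 21.6 CPM in those libraries. Each was highest in library 1, by less than most members of the other complexes. In complex III, UQCRFS1, the Rieske iron-sulphur protein, had 236, 153 and 31.8 CPM, UQCR11 had 167, 115 and 23.4 CPM, and UQCRC2, a core subunit, had 152, 56.8 and 55.2 CPM.

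In complex IV, COX5A had 739 CPM in library 1, 203 in library 3 and 52.6 in library 6. NDUFA4, once assigned to complex I and now counted with complex IV, had 735, 201 and 23.4 CPM. In complex V, ATP5F1A, the alpha subunit of the catalytic head, had 571, 219 and 46.1 CPM, ATP5F1D had 373, 104 and 47.3 CPM, and ATP5MC1, another c-subunit gene, had 482, 81.4 and 15.5 CPM. Each of them was highest in library 1 and lowest in library 5 or 6.

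Where complex IV subunits exist as tissue isoforms, the widely expressed form supplied most UMIs summed over all libraries, as counts not corrected for length. COX4I1 had 3036 UMIs and COX4I2, known from lung and oxygen-regulated expression in other mammals, had 27. COX7A2 had 2128 UMIs and the heart and muscle form COX7A1 had 47. COX6A1 had 2574 UMIs and COX6A2, the heart and muscle form, had 422 in 313 nuclei, with no nucleus holding more than 9. COX6A2 changed little between libraries, with 35.9 CPM in library 1 and 22.4 CPM in library 6, where COX6A1 had 520 CPM and 18.1 CPM. In library 6 COX6A2 thus had more UMIs than COX6A1, 110 against 89, and in library 5 it had 55 against 73. NDUFA4L2, the low-oxygen form of NDUFA4, had 34 UMIs where NDUFA4 had 3446. COX5A and COX5B, distinct subunits, had 3860 and 2023 UMIs. COX6B1 and COX8C matched no symbol and are not used here. Reads of near-identical copies elsewhere in the genome cannot be told apart from these rows in a table of counts.

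Among the mitochondrial genes the proportions also differed between libraries. COX2, COX3 and COX1, the catalytic core of complex IV, and ATP6, of the proton channel of complex V, supplied most UMIs, as counts not corrected for length. COX2 made up 21.4%, 24.8%, 13.5% and 14.8% of the 13 genes' UMIs in libraries 1, 3, 5 and 6. COX1 made up 21.9%, 18.2%, 15.2% and 24% in those libraries, COX3 21.7%, 19.2%, 13.9% and 15.6%, and ATP6 9.44%, 14.9%, 9.61% and 7.75%. CYTB, the only mitochondrial gene of complex III, stayed between 6.96% and 9.45% in these 4 libraries.

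The complex I genes ND6, ND2 and ND5, and ATP8 of complex V, had larger shares in libraries 5 and 6 than in the other 4 libraries. ND6, the only protein gene on the light strand, made up 0.360% of the 13 genes' UMIs in library 1 and 0.132% in library 3, but 5.14% in library 5 (95% interval 4.42 to 5.93%) and 3.13% in library 6 (2.58 to 3.76%). ND2 made up 3.72%, 1.74%, 13.3% and 8.81% in libraries 1, 3, 5 and 6. ND5 made up 2.35%, 1.29%, 6.92% and 6.12%, and ATP8 0.067%, 0.0782%, 0.818% and 1.09%. In libraries 2 and 4, ND6 made up 0.0350% and 0.213%, ND2 2.24% and 2.77%, ND5 1.13% and 2.16%, and ATP8 0.0651% and 0.230%. These shares did not follow the mitochondrial share of the libraries step by step: library 4, with fewer mitochondrial UMIs than library 1, had lower shares of ND6, ND2 and ND5. The libraries 5 and 6 held 3425 and 3483 mitochondrial UMIs in all, so that their ND6 shares rest on 176 and 109 UMIs.

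The remaining complex I genes moved less. ND1 held 4.32%, 4.15%, 4.18% and 3.24% in libraries 1, 3, 5 and 6. ND4 held 5.62%, 5.07%, 6.57% and 5.71%, ND4L 0.369%, 0.307%, 0.321% and 0.431%, and ND3 1.77%, 0.687%, 2.75% and 2.35%. Counts of neighbouring genes are not fully separate: ATP8 (MT, 8959 to 9162) overlaps ATP6 (9120 to 9800) by 43 bases, and ND5 (12935 to 14755) overlaps ND6 (14739 to 15266), which lies on the opposite strand, by 17. Nuclear copies of mitochondrial sequence cannot be told apart from the organelle's own messages in such counts, and their part in the small libraries was not tested.

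**Figure D3:**
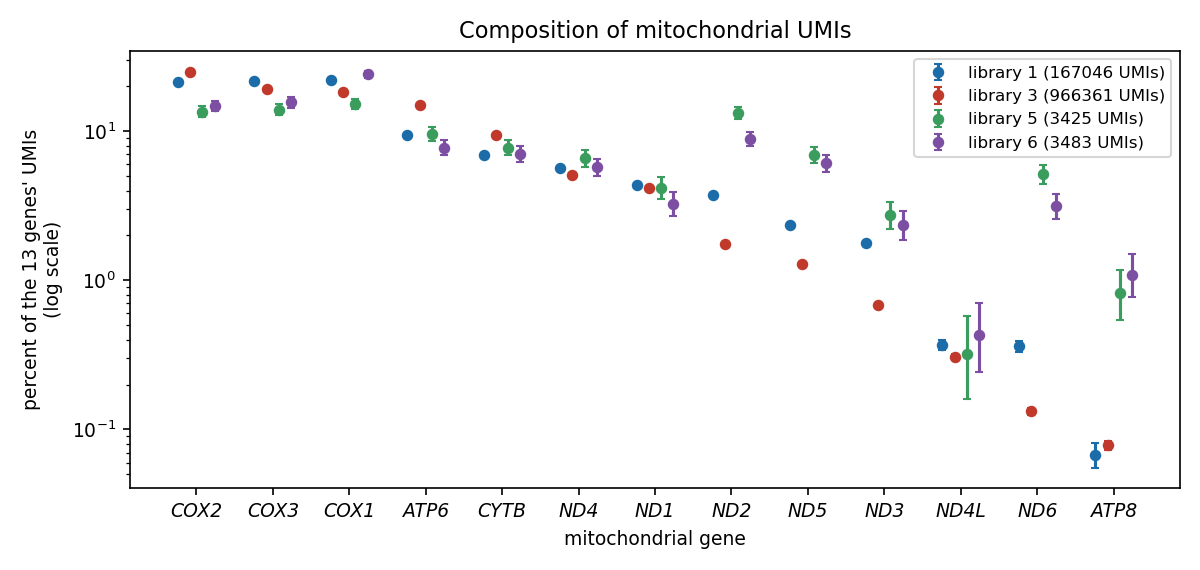
Share of each mitochondrial gene among the UMIs of all 13 (percent, log scale) in the libraries 1, 3, 5 and 6, with 95% counting intervals. ND6 holds 5.14% and 3.13% in libraries 5 and 6, against 0.360% and 0.132% in libraries 1 and 3.

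Next, nuclei were grouped by 7 marker genes of sensory neuron classes. A nucleus joined the marker with its highest count, if that count was at least 2 and not tied. PVALB, a calcium-binding protein of position-sensing neurons, and NTRK2 and NTRK3, receptors for the neurotrophins BDNF and NT-3 on touch and position neurons, formed the large-fibre side. ADCYAP1, a peptide of pain-sensing neurons, GFRA2, a co-receptor for neurturin on unmyelinated neurons, IL31RA, a receptor for the itch cytokine interleukin-31, and TRPM8, the cold channel, formed the C-fibre side. In all, 503 large-fibre and 780 C-fibre marker nuclei were found, 906 nuclei had no group, and 390 grouped nuclei had 2 or more UMIs of a second marker. The groups are named after their marker and are not clusters. Ratios between groups were stratified by library (Mantel-Haenszel), and values within libraries with at least 10 nuclei on each side are given beside them. Where no library is named, the CPM of a gene in a group is summed over all libraries. It is not stratified and can differ from the ratio beside it.

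Summed over their UMIs, large-fibre marker nuclei held more nuclear OXPHOS message than C-fibre marker nuclei, with the largest difference in library 1. The level was 23517 CPM in large-fibre and 11452 CPM in C-fibre marker nuclei of library 1, and 6004 and 4789 CPM in those of library 3. In library 4 it was 3180 CPM in 45 large-fibre nuclei and 2400 CPM in 12 C-fibre nuclei. In library 5 it was 1898 and 1638 CPM, and in library 6 it was 1675 and 1572 CPM, again with the large-fibre side first. By summed UMIs the large-fibre side was thus higher within each of these 5 libraries. The log2 ratio ran from 1.04 in library 1 to 0.092 in library 6. In library 6 the counting intervals overlapped, 1599 to 1754 CPM and 1530 to 1615 CPM. Single nuclei of library 3 differed from the sums. The median there was 3602 CPM for NTRK2 and 2237 CPM for NTRK3 nuclei, below the 3845 to 5701 CPM of the C-fibre groups. For PVALB nuclei it was 17593 CPM.

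The stratified ratio was 1.71-fold (log2 0.77). Without library 1 it was 0.29 on the log2 scale, so that the size of this ratio of sums, not its direction, rested on that library. Ribosomal protein genes differed less, with a log2 ratio of 0.13 over all libraries and 0.32 in library 1. The median depth was 4893 non-mitochondrial UMIs in large-fibre and 6849 in C-fibre nuclei of library 1, and 3054 and 4050 in those of library 3. The part of depth in the ratio was not tested beyond thinning, after which it was 0.63.

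Of the 73 members tested, 14 were at least 2-fold higher in large-fibre marker nuclei, where 6.66% of all 12789 genes were, and none was at least 2-fold lower, where 3.97% were. Their median log2 ratio was 0.73, against 0.045 over all genes, and 70 of 73 were above 0. The 14 came down to NDUFA11 alone, 1 member, without library 1, and 22 passed without library 3. Within library 1, 71 of 74 members with a value were above 0, and in library 3, 61 of 71. In library 4 it was 48 of 72, in library 5 it was 33 of 64 and in library 6 it was 36 of 71. Within single libraries, 36, 4, 15, 7 and 0 members were at least 2-fold higher in libraries 1, 3, 4, 5 and 6. At least 2-fold lower were 0, 0, 3, 4 and 7. In library 6 each member past the limit was thus lower on the large-fibre side. The share of all genes past 2-fold is not given within single libraries or with a library left out. None of those counts can be set against it.

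NDUFA11 had the highest ratio (log2 1.58), with 30.7 CPM in large-fibre and 9.79 CPM in C-fibre marker nuclei, and log2 ratios of 1.75 and 0.83 within libraries 1 and 3. NDUFB4, another accessory subunit of complex I, followed with 83.5 and 33.7 CPM (log2 1.28). NDUFA4 had 338 CPM on the large-fibre side and 134 CPM on the C-fibre side (log2 1.27, 1.54 within library 1 and 0.37 within library 3). ATP5MC3 had 136 CPM on the large-fibre side and 66.2 CPM on the C-fibre side (log2 1.22). NDUFB4 and ATP5MC3 were higher on the large-fibre side within libraries 1 and 3 as well (1.44 and 0.78, 1.33 and 0.59), and in library 6 both were lower (-0.41 and -0.15).

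At the lower end, NDUFB1 had a log2 ratio of -0.31, on 53 UMIs in large-fibre and 92 in C-fibre nuclei. NDUFAF1 had -0.10, COX6A2 -0.054, NDUFB9 0.050 and COX7A2L, a factor that joins complexes III and IV, 0.17. COX6A2 had 26.1 CPM in large-fibre and 26.3 CPM in C-fibre marker nuclei, where COX6A1 had 205 and 120 CPM. By complex the log2 ratio of the sums was 0.91 for complex V, 0.86 for complex II, 0.82 for complex IV, 0.71 for complex III, 0.69 for complex I and 0.44 for the assembly factors. Complex II was higher on the large-fibre side within each of libraries 1, 3, 4, 5 and 6, at 0.99, 0.84, 1.08, 0.48 and 0.72. Complex III fell below 0 in libraries 5 and 6, at -0.076 and -0.16, and ATP5IF1 (0.58 over all libraries) in libraries 3, 5 and 6, at -0.30, -0.52 and -0.99.

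**Figure D4:**
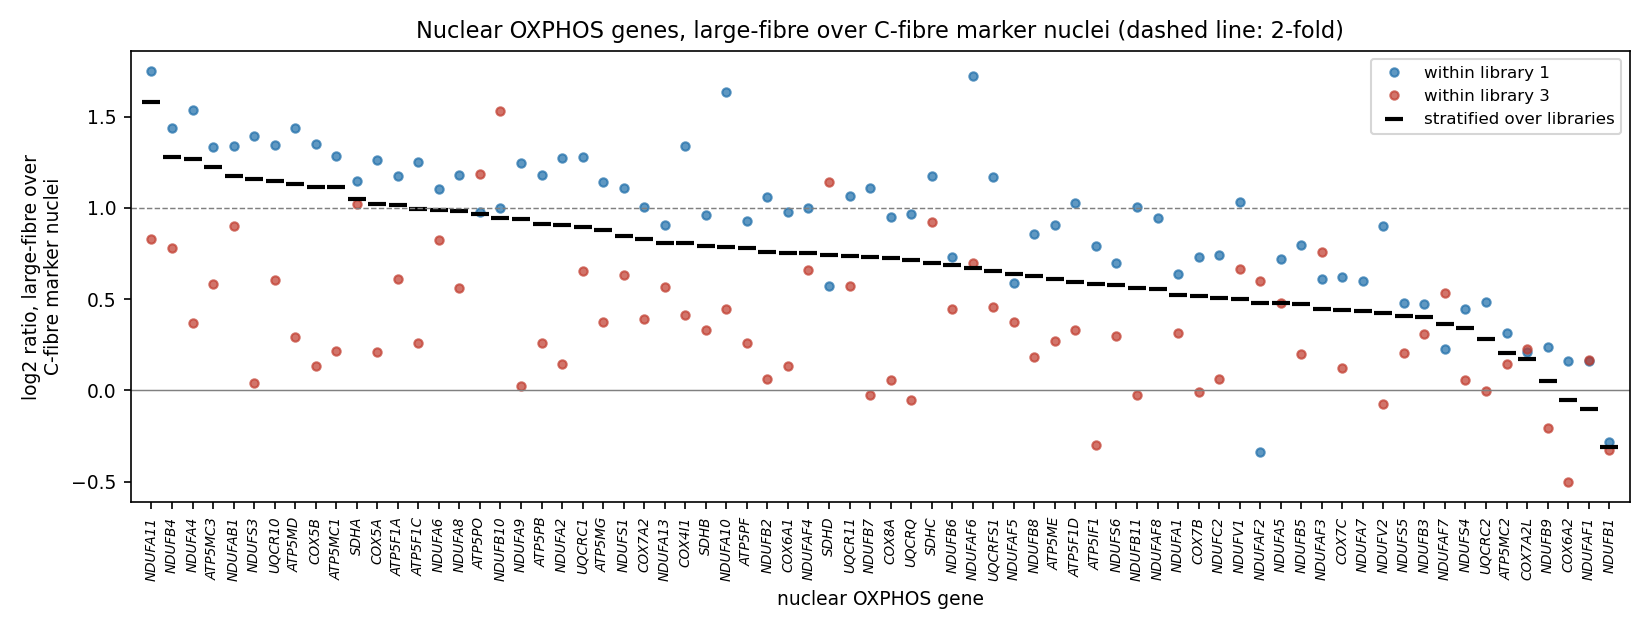
Log2 ratio of 72 of the 73 nuclear OXPHOS genes with at least 50 UMIs, large-fibre over C-fibre marker nuclei, stratified over libraries (black bars) and within libraries 1 and 3 (blue and red points), with 0.5 UMIs added within libraries. Most blue points lie above the red ones, and the highest and lowest bars are NDUFA11 at 1.58 and NDUFB1 at -0.31.

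The mitochondrial genes went the other way in the stratified ratio and had no common direction over libraries. Their share was 5.70% in large-fibre and 4.204% in C-fibre marker nuclei of library 1, but 17.1% and 27.5% in those of library 3. It was 1.24% and 4.44% in library 4, 0.137% and 0.128% in library 5, and 0.0414% and 0.0777% in library 6, the large-fibre side first. The stratified ratio, per non-mitochondrial UMI, was 0.622-fold (log2 -0.68), and it was 0.042 without library 3. None of the 13 genes differed by 2-fold, and all 13 were below 0, between -0.84 for ATP6 and -0.29 for ATP8.

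Behind these sums the 3 large-fibre markers differed from each other. PVALB nuclei had the highest ratio for the nuclear genes and, close to IL31RA nuclei, for the mitochondrial genes, whereas NTRK3 nuclei had stratified ratios below 0 in both. PVALB nuclei held 24784 CPM of nuclear OXPHOS message in library 1, where NTRK2 nuclei held 24642, NTRK3 nuclei 14695, ADCYAP1 nuclei 10085, GFRA2 nuclei 13562, IL31RA nuclei 10227 and TRPM8 nuclei 15910 CPM. In library 3 they held 16057 CPM, against 6523, 3030, 4031, 5948, 4485 and 6341 CPM in the other groups in the same order. The counting intervals of PVALB and NTRK2 overlapped in library 1, 24320 to 25255 CPM and 24152 to 25139 CPM, and did not in library 3.

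The stratified log2 ratio of PVALB nuclei over the other groups was 0.95 for the nuclear genes, with 0.81 in library 1 and 1.72 in library 3, the libraries that held 55 and 28 of the 95 PVALB nuclei. Library 5 had none. At least 2-fold higher were 29 of 73 members (6.78% of all genes), and 1, NDUFAF2, was at least 2-fold lower (20.5%). NDUFA10 was highest, with 324 CPM in PVALB nuclei and 86.9 CPM in the other groups (log2 1.83, 1.66 in library 1 and 2.48 in library 3). NDUFAF2 was lowest, with 16.03 and 38.0 CPM (log2 -1.10, on 10 UMIs in PVALB nuclei). The highest and the lowest member thus both belong to complex I or its assembly. Without library 1 the ratio of the sums was 1.73. Ribosomal protein genes were also higher in PVALB nuclei, at log2 0.31, with 0.18 in library 1 and 0.78 in library 3. Glial markers had 1084 CPM in PVALB nuclei of library 3, against 669 to 1005 CPM in the other groups, and 2771 CPM in those of library 1, against 2880 to 3812 CPM. Their part in the OXPHOS ratio was not tested. The mitochondrial genes of PVALB nuclei had a log2 ratio of 0.69, with all 13 above 0 and ATP8 at least 2-fold higher.

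NTRK3 nuclei were lower for 12 of 73 nuclear members by at least 2-fold, a share not far above the 12% of all genes. No member was at least 2-fold higher, where 8.16% of all genes were. The log2 ratio of the sums was -0.55. It was -0.13, -0.93, -1.31, -0.16 and 0.085 in libraries 1, 3, 4, 5 and 6. In library 1 the summed level of the 15 NTRK3 nuclei was above those of the ADCYAP1, IL31RA and GFRA2 nuclei. A single nucleus supplied 30.2% of the nuclear OXPHOS UMIs of these 15. The median NTRK3 nucleus there, at 11197 CPM, was above those of ADCYAP1 (9523 CPM) and IL31RA (8415 CPM) but not of GFRA2 (11240 CPM). The sums of the assembly factors and of complex II were above 0 over all libraries, at 0.35 and 0.084, and below 0 in library 4. Their mitochondrial genes were at least 2-fold lower for 13 of 13. The mitochondrial share of NTRK3 nuclei was 10.4% in library 3, where the other groups had 17.7 to 35.6%, 0.168% in library 4, 0.0659% in library 5 and 0.0270% in library 6. In library 1, it was 4.58%, inside the range of the other groups (3.83 to 5.86%). The log2 ratio was -1.59 over all libraries and -0.066, -1.57, -4.32, -1.01 and -1.49 in libraries 1, 3, 4, 5 and 6. Ribosomal protein genes were also lower in NTRK3 nuclei (log2 -0.48, at least 2-fold for 15 of 68), with -0.012 in library 1 and -0.65 in library 3.

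Among the members of NTRK3 nuclei, NDUFAF2 had the highest ratio (log2 0.83, 58.5 CPM against 33.2 CPM in the other groups) and NDUFAF8, a small assembly factor, the lowest (log2 -1.95, on 3 UMIs in NTRK3 nuclei). UQCRFS1 had 34.9 CPM in NTRK3 nuclei and 123 CPM in the others (log2 -1.39), and COX4I1 had 62.5 and 202 CPM (log2 -1.37). Within library 1 these were 0.12 and -0.32. Both genes were thus closer to the other groups in library 1 than in library 3, where they were -1.65 and -1.74. Without library 4 the ratio of the nuclear sums was -0.34.

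NTRK2 nuclei had a nuclear log2 ratio of 0.64, above 0 in each of libraries 1, 3, 4, 5 and 6 (0.78, 0.40, 0.85, 0.28 and 0.045). These are ratios of sums. In library 3 the median NTRK2 nucleus had 3602 CPM, where NTRK3 nuclei had 2237 CPM and the other groups 3845 to 17593 CPM. Over all libraries 71 of 73 members were above 0, and the share of all genes above 0 is not given for this comparison. NDUFAF4 and UQCRFS1 passed 2-fold, a share near the 2.34% of all genes, none was 2-fold lower (3.61%), and NDUFAF5 was lowest at -0.078. UQCRFS1 had 191 CPM in NTRK2 nuclei and 94.5 CPM in the others. Their mitochondrial log2 ratio was -0.39, made of 0.38 in library 1 and -0.63 in library 3, and it was 0.49 without library 3.

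On the C-fibre side, IL31RA and ADCYAP1 nuclei had the lowest stratified ratios for the nuclear genes. The order was not the same throughout: pooled over libraries ADCYAP1 nuclei had the highest level of the C-fibre groups, at 5151 CPM, and in library 6 GFRA2 nuclei had the lowest, at 1514 CPM. For IL31RA nuclei the log2 ratio was -0.58, at -0.81, -0.30, -0.24 and -0.022 in libraries 1, 3, 5 and 6. At least 2-fold lower were 5 members, NDUFA11, ATP5MC3, NDUFB2 and UQCR10 among them, a share near the 6.87% of all genes. None was higher (2.42% of all genes). NDUFA11 had 5.64 CPM in IL31RA nuclei and 21.4 CPM in the others (log2 -1.70), and UQCRC2 had the highest ratio, 0.091. The mitochondrial genes of IL31RA nuclei were higher, at log2 0.68, with 32.5% of UMIs in library 3, and 0.14 without library 3. In library 1 they were lower, at -0.20.

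For ADCYAP1 nuclei the nuclear log2 ratio was -0.56, at -0.78, -0.48, -0.16 and -0.035 in libraries 1, 3, 5 and 6. At least 2-fold lower were 7 members, a share near the 8.89% of all genes, and none was higher (2.47%). Among the 7 were NDUFS3, NDUFA4, SDHB, NDUFA11, UQCRC1 and NDUFAB1. NDUFS3, a core subunit of complex I, had 38.4 CPM in ADCYAP1 nuclei and 60.8 CPM in the others (stratified log2 -1.23), and NDUFAF3 had the highest ratio, 0.18. The mitochondrial ratio was -0.049 and changed sign over libraries, at -0.40 in library 1 and 0.67 in library 6. It was -0.57 without library 3 and 0.089 without library 2. The nuclear ratio was -0.27 without library 1, for ADCYAP1 as for IL31RA nuclei.

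GFRA2 and TRPM8 nuclei were near the other groups. Their nuclear log2 ratios were -0.044 and 0.065, their mitochondrial ones -0.091 and 0.28, and no nuclear member passed 2-fold in either direction, where 3.35% and 2.71% of all genes were higher and 9.01% and 5.23% lower. In GFRA2 nuclei COX6A2 was the highest member (36.0 CPM against 24.6 CPM in the others, log2 0.69) and NDUFA6 the lowest (16.2 and 33.1 CPM, log2 -0.81). In TRPM8 nuclei ATP5MC2 was highest (24.7 and 22.9 CPM, stratified log2 0.46, on 32 UMIs) and NDUFAF8 lowest (-0.69, on 4 UMIs). The mitochondrial ratio of TRPM8 nuclei was 0.16 without library 4, which held 2 such nuclei, and 0.60 without library 3. For GFRA2 nuclei the nuclear ratio was 0.14 without library 1, and the mitochondrial ratio was 0.13 without library 3, so that neither kept its sign.

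**Figure D5:**
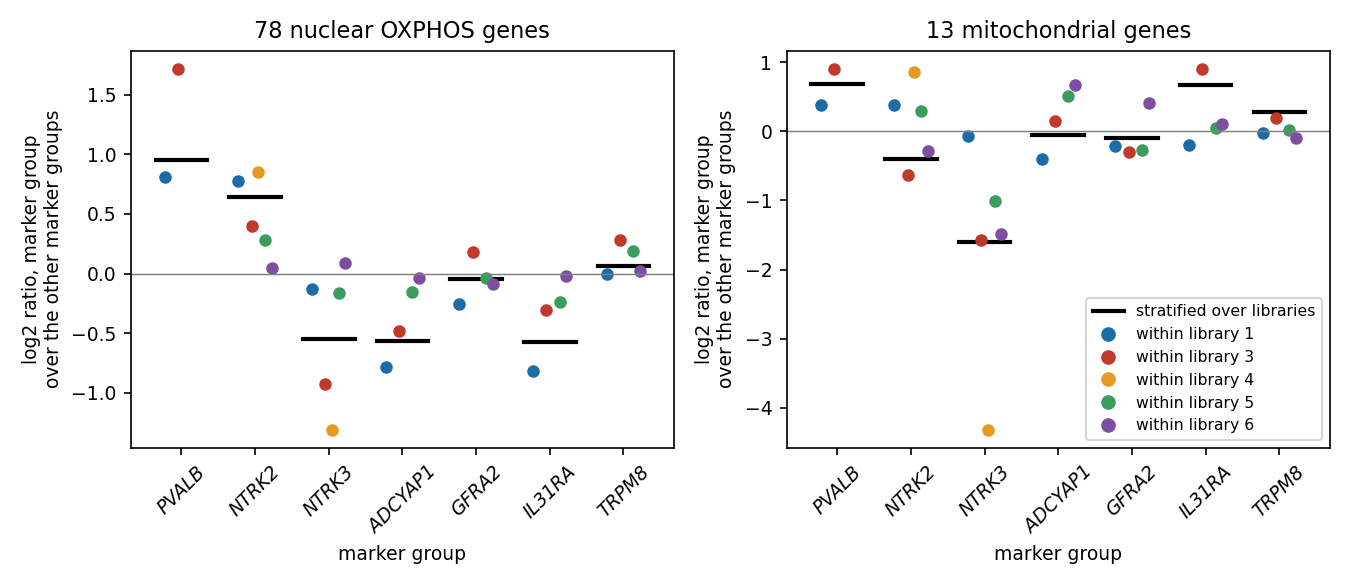
Log2 ratio of the summed nuclear OXPHOS genes (left) and mitochondrial genes (right), each marker group over the other marker groups, stratified over libraries (black lines) and within libraries with at least 10 nuclei on each side (points). PVALB stands highest on the left at 0.95, and NTRK3 lowest on the right at -1.59.

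Related gene lists were set beside the members in the comparison of large-fibre with C-fibre marker nuclei. Of 33 tested genes for other assembly factors, cytochrome c and carriers of the inner and outer membrane, 8 were at least 2-fold higher and none lower, with a median log2 ratio of 0.39. Citrate cycle genes, which feed the chain with NADH and succinate, had 1 of 12 higher (median 0.44), glycolysis genes 2 of 14 (0.39) and mitochondrial biogenesis genes 3 of 14 (0.27), and none of these lists had a gene 2-fold lower. The nuclear OXPHOS genes had a median of 0.73, the 68 ribosomal protein genes 0.10 and all genes 0.045. Glial markers had 2 of 10 higher, none lower and a median of 0.43, with 1475 CPM in large-fibre and 1038 CPM in C-fibre nuclei, and their part in the OXPHOS ratio was not tested.

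Across single nuclei of a library, the nuclear OXPHOS level and the mitochondrial level were related, more closely in libraries 1, 3 and 4 than in libraries 5 and 6. Spearman's rho was 0.56 over 625 nuclei of library 1, 0.58 over 744 of library 3 and 0.72 over 68 of library 4, among nuclei with at least 1000 non-mitochondrial UMIs. It was 0.18 over 323 nuclei of library 5 and 0.25 over 275 of library 6. Nuclear OXPHOS and ribosomal protein levels were related in the same order, with rho 0.67, 0.71, 0.85, 0.13 and 0.18 in libraries 1, 3, 4, 5 and 6. These are descriptions: nuclei of a library share its preparation and sequencing, and the levels share a denominator.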

How the data were processed

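Single-nucleus RNA was barcoded with the 10x Genomics 3' v3.1 kit, per the labels' protocols. The submitters' processing notes name Cell Ranger 6.0.1, Seurat and Sscrofa11.1, without saying what each did. The authors deposited a single table of UMI counts, not normalized, of 30477 genes in 2189 nuclei, and 0 columns of values were left unmapped. Libraries were read from the barcode endings and are a technical batch, since the labels do not tie them to the 5 pigs. Filters on nuclei before deposit and the treatment of doublets are not given in the sources used here. No doublet caller was run, and 390 grouped nuclei with a second marker may include doublets.

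Of 14012 rows with an Ensembl identifier, 773 were named through a table of gene names. Coordinates are RefSeq's on Sscrofa11.1. Nuclear genes were divided by non-mitochondrial UMIs, and mitochondrial genes were given as a percent of all UMIs, or per non-mitochondrial UMI in ratios. Intervals are exact Poisson for levels and Clopper-Pearson for shares, at 95%. Group ratios are Mantel-Haenszel ratios over libraries, limited to genes with 50 or more UMIs summed over both sides. Within a library 10 nuclei a side and 10 UMIs were needed, and a difference was counted from 2-fold. With a single pooled sample there is no replicate and no test between groups, and Dixon's ratio over the 6 libraries served only to mark values. Genes were named by this rule: the 13 mitochondrial genes, the 3 of highest level in each complex, the 5 highest and 5 lowest ratios of large-fibre over C-fibre nuclei, the highest and lowest in each group and library, and listed pairs of isoforms. Of the genes that this rule names, 1 is not reported here, and counts and sums over the members include it. The genes, lists and markers were chosen with earlier results of these data known. The calculation was tested on simulated data. Python 3.11.15, numpy 2.4.6, pandas 2.3.3, scipy 1.17.1 and matplotlib 3.10.9 were used. Alternatives to these choices are given in the closing section.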

Additional observations from a re-analysis of the deposited data

Results flagged for a closer look

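ATP5IF1, the inhibitor of ATP synthase, was far higher in library 1 than in any other library, at 674 CPM against 243 CPM in library 2, the next highest. The gap was 0.660 of the whole range over the 6 libraries, above Dixon's critical value at the 95% level. Of 22 such series of 6 libraries it was the 1 past that value, and chance marks about 1 in 20. The libraries are not replicates of a group, so this marks a value and tests no difference.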

How the results depend on the processing

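The nuclear ratios of TRPM8 and GFRA2 nuclei, the mitochondrial ratios of TRPM8, GFRA2, ADCYAP1 and NTRK2 nuclei and the large-fibre mitochondrial sum changed sign under at least 1 alternative, and the other ratios of sums kept theirs. Values below are log2 ratios of a marker group over the other groups, or of large-fibre over C-fibre nuclei, unless stated, and those not named moved by less than their counting interval. With 1 marker UMI enough to join a group, the nuclear value was 0.11 for TRPM8, 0.58 for NTRK2, -0.48 for NTRK3 and 0.92 for PVALB. In this setting, the mitochondrial value was 0.31 for TRPM8, 0.60 for IL31RA, -0.14 for GFRA2, 0.012 for ADCYAP1, -1.52 for NTRK3 and 0.82 for PVALB. Here large-fibre over C-fibre it was 0.72 for the nuclear sum and -0.58 for the mitochondrial sum. With at least 3 marker UMIs, the nuclear value was -0.61 for IL31RA, -0.52 for ADCYAP1 and -0.60 for NTRK3. Under the same choice, the mitochondrial value was 0.34 for TRPM8, 0.76 for IL31RA, -0.15 for GFRA2, -0.17 for ADCYAP1, -0.34 for NTRK2, -2.17 for NTRK3 and 0.73 for PVALB. With that choice, large-fibre over C-fibre it was 0.79 for the nuclear sum and -0.76 for the mitochondrial sum. With each marker divided by its library mean, the nuclear value was -0.046 for TRPM8, -0.52 for ADCYAP1 and 0.72 for NTRK2. In the same way, the mitochondrial value was 0.12 for TRPM8, 0.72 for IL31RA, -0.16 for GFRA2, -0.087 for ADCYAP1, -0.36 for NTRK2, -1.42 for NTRK3 and 0.57 for PVALB. Then large-fibre over C-fibre it was 0.73 for the nuclear sum and -0.57 for the mitochondrial sum. Without nuclei that had 2 or more UMIs of a second marker, the nuclear value was 0.16 for TRPM8, -0.71 for IL31RA, 0.020 for GFRA2, -0.62 for ADCYAP1, 0.83 for NTRK2, -0.67 for NTRK3 and 0.79 for PVALB. In this setting, the mitochondrial value was 0.19 for TRPM8, 0.72 for IL31RA, -0.24 for GFRA2, 0.10 for ADCYAP1, -0.49 for NTRK2, -1.54 for NTRK3 and 0.82 for PVALB. Here large-fibre over C-fibre it was 0.81 for the nuclear sum and -0.66 for the mitochondrial sum. As crude ratios over all libraries, the nuclear value was -0.26 for TRPM8, -0.67 for IL31RA, -0.31 for GFRA2, -0.094 for ADCYAP1, -1.14 for NTRK3 and 2.17 for PVALB. Under the same choice, the mitochondrial value was -0.35 for TRPM8, 0.41 for IL31RA, -0.32 for GFRA2, 0.66 for ADCYAP1, -0.11 for NTRK2, -1.70 for NTRK3 and 0.81 for PVALB. With that choice, large-fibre over C-fibre it was -0.50 for the mitochondrial sum. As means over nuclei, the nuclear value was 0.15 for TRPM8, -0.54 for IL31RA, -0.10 for GFRA2, -0.62 for ADCYAP1, 0.31 for NTRK2, -0.67 for NTRK3 and 1.11 for PVALB. In the same way, the mitochondrial value was 0.040 for TRPM8, 1.03 for IL31RA, -0.23 for GFRA2, 0.12 for ADCYAP1, -0.996 for NTRK2, -1.41 for NTRK3 and 0.82 for PVALB. Then large-fibre over C-fibre it was 0.64 for the nuclear sum and -0.89 for the mitochondrial sum, and 8 members passed on the large-fibre side. In this setting, the nuclear level of the highest library was 11.8-fold that of the lowest, library 2 being the highest in place of library 1. Here the mitochondrial share of the highest library was 254-fold that of the lowest. Without nuclei above 50000 UMIs, the nuclear value was -0.62 for IL31RA, -0.15 for GFRA2, -0.67 for ADCYAP1, -0.50 for NTRK3 and 0.92 for PVALB. Under the same choice, the mitochondrial value was 0.73 for IL31RA, -0.29 for GFRA2, 0.083 for ADCYAP1, -0.44 for NTRK2, -1.52 for NTRK3 and 0.68 for PVALB. With that choice, large-fibre over C-fibre it was 0.81 for the nuclear sum and -0.67 for the mitochondrial sum. In the same way, the nuclear level of the highest library was 14.2-fold that of the lowest, library 2 being the highest in place of library 1. With at least 1000 non-mitochondrial UMIs per nucleus, the mitochondrial value was 0.67 for IL31RA, -0.10 for GFRA2 and -0.38 for NTRK2, and large-fibre over C-fibre it was -0.67 for the mitochondrial sum. After thinning to 1000 UMIs, the nuclear value was 0.19 for TRPM8, -0.52 for IL31RA, -0.71 for ADCYAP1, 0.27 for NTRK2, -0.71 for NTRK3 and 1.14 for PVALB. Then the mitochondrial value was 0.024 for TRPM8, 0.98 for IL31RA, -0.34 for GFRA2, 0.097 for ADCYAP1, -0.91 for NTRK2, -1.42 for NTRK3 and 0.82 for PVALB. In this setting, large-fibre over C-fibre it was 0.63 for the nuclear sum and -0.81 for the mitochondrial sum, and 8 members passed on the large-fibre side. Here Spearman's rho in library 3 was 0.51, and Spearman's rho in library 6 was 0.10. With all UMIs as denominator, the nuclear value was -0.61 for IL31RA, -0.47 for NTRK3 and 0.92 for PVALB. Under the same choice, large-fibre over C-fibre it was 0.80 for the nuclear sum and -0.53 for the mitochondrial sum, and the nuclear level of the highest library was 9.17-fold that of the lowest. As the median of the members' log2 ratios, the nuclear value was -0.46 for ADCYAP1, -0.59 for NTRK3 and 0.88 for PVALB. Centred on the median of all genes, large-fibre over C-fibre it was 0.73 for the nuclear sum and -0.73 for the mitochondrial sum. At a threshold of 1.5-fold, 47 members passed on the large-fibre side. The share of all genes past the limit is not given for any alternative here, so counts of members passing cannot be set against it. Without the assembly factors, the nuclear level of the highest library was 10.3-fold that of the lowest. With at least 3000 UMIs per nucleus, Spearman's rho in library 1 was 0.63. Leaving out each library in turn, the nuclear value ran from 0.023 to 0.16 for TRPM8, -0.67 to -0.27 for IL31RA, -0.14 to 0.14 for GFRA2, -0.63 to -0.27 for ADCYAP1, 0.45 to 0.70 for NTRK2, -0.76 to -0.34 for NTRK3 and 0.88 to 1.73 for PVALB. The mitochondrial value ran from 0.16 to 0.60 for TRPM8, 0.14 to 0.81 for IL31RA, -0.28 to 0.13 for GFRA2, -0.57 to 0.089 for ADCYAP1, -0.53 to 0.49 for NTRK2, -1.73 to -1.45 for NTRK3 and 0.41 to 0.87 for PVALB. Large-fibre over C-fibre, it ran from 0.29 to 0.87 for the nuclear sum and from -0.92 to 0.042 for the mitochondrial sum, with 1 to 22 members at least 2-fold higher. The count of 0 members at least 2-fold lower was 0 under all 23 alternatives tried for it. The causes of these shifts were not tested. Naming no gene through the table of gene names, and leaving out genes at 0 in library 3, were chosen after seeing the data, and neither moved a ratio between groups or the count of members past its limit. With the 72 genes named in the deposited table alone, library 1 had 13994 CPM. No paired analysis was possible because the table is a single pooled sample whose libraries are not tied to pigs. Depth limits library 2 most, with 637845 non-mitochondrial UMIs in 13 nuclei. In libraries 5 and 6 low levels leave single genes on few UMIs, such as 2 each for NDUFA11. Counts set side by side for different genes are not corrected for length.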
